A study of Homo sapiens with 12 samples.

Results

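The genes described here are 10 targets of the transcription factor NF-κB, measured in A549 cells: the neutrophil-attracting chemokines CXCL1, CXCL2, CXCL3, CXCL5 and CXCL8, the chemokine CCL20, the prostaglandin enzyme gene PTGS2, and the feedback and survival genes BIRC3, NFKBIA and TNFAIP3. They were taken by gene symbol from the deposited count tables, which list 25433 genes between them. All 10 stood in the table of control and TGF-β1 libraries and 9 in the table of TGF-β1 and acetate libraries. CCL20 was absent from the latter, so it fell below that table's filter of more than 0.1 CPM, a gene's count scaled to the size of its library, in at least 4 libraries.

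A549 is an established human lung adenocarcinoma line with features of alveolar epithelium, used here at passages 5 to 10. There were 3 groups of 4 libraries, of total RNA freed of ribosomal RNA: control cells, cells given 10 ng/mL TGF-β1, and cells given 10 ng/mL TGF-β1 with 40 mM sodium acetate, the treatments lasting 2 days. The study asked how acetate changed transcription after TGF-β1 stimulation; no library here came from cells given acetate without TGF-β1. The count columns carry codes (S1 to S4, S15 to S18, S22 to S25) that no sample label explains, so their placement as control, TGF-β1 and acetate rests on the names of the tables; were a table misnamed, each comparison below would be affected. Nothing in the labels ties the 4 libraries of a group to different cultures, and the p-values therefore reflect only how these libraries vary, possibly for technical reasons.

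Libraries held 34698057 to 53938444 counts, at which 3 counts equal 0.0564 to 0.0856 CPM. Epithelial and lung adenocarcinoma markers were in the tables for 11 of 11 genes, and their sum ran from 21134 to 22334 CPM in control, 20404 to 21666 CPM in TGF-β1 and 15133 to 16330.3 CPM in acetate libraries. Single markers of that list moved in unlike ways. KRT8, a keratin of simple epithelia, was at a mean of 2250.3 CPM in control, 2237 CPM in TGF-β1 and 2525 CPM in acetate libraries, and ALDH1A1 at 8919, 13781 and 6736 CPM. CDH1 (E-cadherin) was at 58.7, 1.46 and 45.5 CPM in the same order, EPCAM at 4.22, 1.08 and 5.63 CPM, KRT19 at 36.6, 7.01 and 58.4 CPM, AKR1B10 at 3484, 269 and 634 CPM, and ALDH3A1 at 876.6, 29.5 and 43.8 CPM. These 5 had their lowest mean in TGF-β1 libraries, as PTGS2 and BIRC3 did (below), and their part in the results was not tested. Of the leukocyte markers, 4 of 10 were in the tables; PTPRC, CD3E, MS4A1, FCGR3A and LYZ were in neither table, and the 4 listed (CD14, CD68, ITGAM and CSF1R) summed to 13.9 to 16.9 CPM in control, 15.5 to 18.7 CPM in TGF-β1 and 25.4 to 26.8 CPM in acetate libraries, mostly from the lysosomal gene CD68. Endothelial markers were limited to TEK (1 of 5), at 0.0940 to 0.204, 0.463 to 0.735 and 0.614 to 1.17 CPM in the same order, and red cell markers to 0 of 3. All 5 fibroblast markers were listed, and their sum ran from 4.83 to 5.53 CPM in control, 14.05 to 16.4 CPM in TGF-β1 and 61.3 to 68.2 CPM in acetate libraries; whether any part of the results below moves with these markers was not tested. In bulk RNA, fewer cells that make a transcript and less transcript per cell cannot be told apart.

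NF-κB dimers are held in the cytoplasm by IκB proteins until signals such as TNF, interleukin 1 or bacterial products activate the IKK kinase complex, which marks IκB for breakdown and lets the dimers reach κB sites in DNA. Airway and alveolar epithelial cells use this pathway to release chemokines that draw in neutrophils, and to make prostaglandins. The pathway also switches on its own inhibitors: NFKBIA encodes IκBα, which takes NF-κB back out of the nucleus, and TNFAIP3 encodes A20, which edits ubiquitin chains upstream of IKK. Another target, BIRC3, encodes cIAP2, a ubiquitin ligase that works at TNF receptors and restrains cell death.

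After TGF-β1, 8 of the 10 genes were lower than in control cells and 0 were higher by edgeR's quasi-likelihood test at a Benjamini-Hochberg adjusted p below 0.05. Over all 22051 genes tested in that comparison, 66.9% passed in either direction and 32.8% were lower. The libraries of the 2 groups did not overlap for the same 8 genes, beside 61.4% of all genes. CCL20 stands in this table only through its control libraries, being under 0.1 CPM in every TGF-β1 library, so it could only be lower; of the other 9 genes, 7 were lower. Of those 9, 5 were at least 4-fold lower, beside 3.14% of all genes, and 4 at least 8-fold lower, beside 1.4%. Their median log2 change was -2.94, beside 0.02 over all genes. The 10 genes were chosen with earlier results of these data known. Here and below, their shares and medians beside all genes are therefore a description and not a test of the set. NFKBIA and TNFAIP3 were the 2 genes that did not pass.

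Adding acetate to TGF-β1 moved the genes in both directions. PTGS2 and BIRC3 rose, CXCL1, CXCL2, NFKBIA and TNFAIP3 fell, and CXCL3, CXCL5 and CXCL8 did not pass the test, so that 6 of 9 genes passed where 63.7% of all 22336 genes tested did (33.3% higher and 30.4% lower). PTGS2 and BIRC3 were the 2 genes at least 2-fold higher, a size that 10.8% of all genes reached. Libraries did not overlap for 5 of the 9, beside 57.3% of all genes. The median log2 change of the 9 was -0.10, beside 0.03 over all genes. These counts lie near the shares over all genes. Scaled to library totals, which moved the median of all genes from 0.03 to 0.16 on the log2 scale in this comparison and from 0.02 to -0.09 in that of TGF-β1 with control, 6 genes still passed but with 4 higher (CXCL3, CXCL5, PTGS2 and BIRC3) and 2 lower (CXCL1 and CXCL2); over all genes the split of higher against lower went from 7437 and 6792 to 9592 and 4699.

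**Figure D1:**
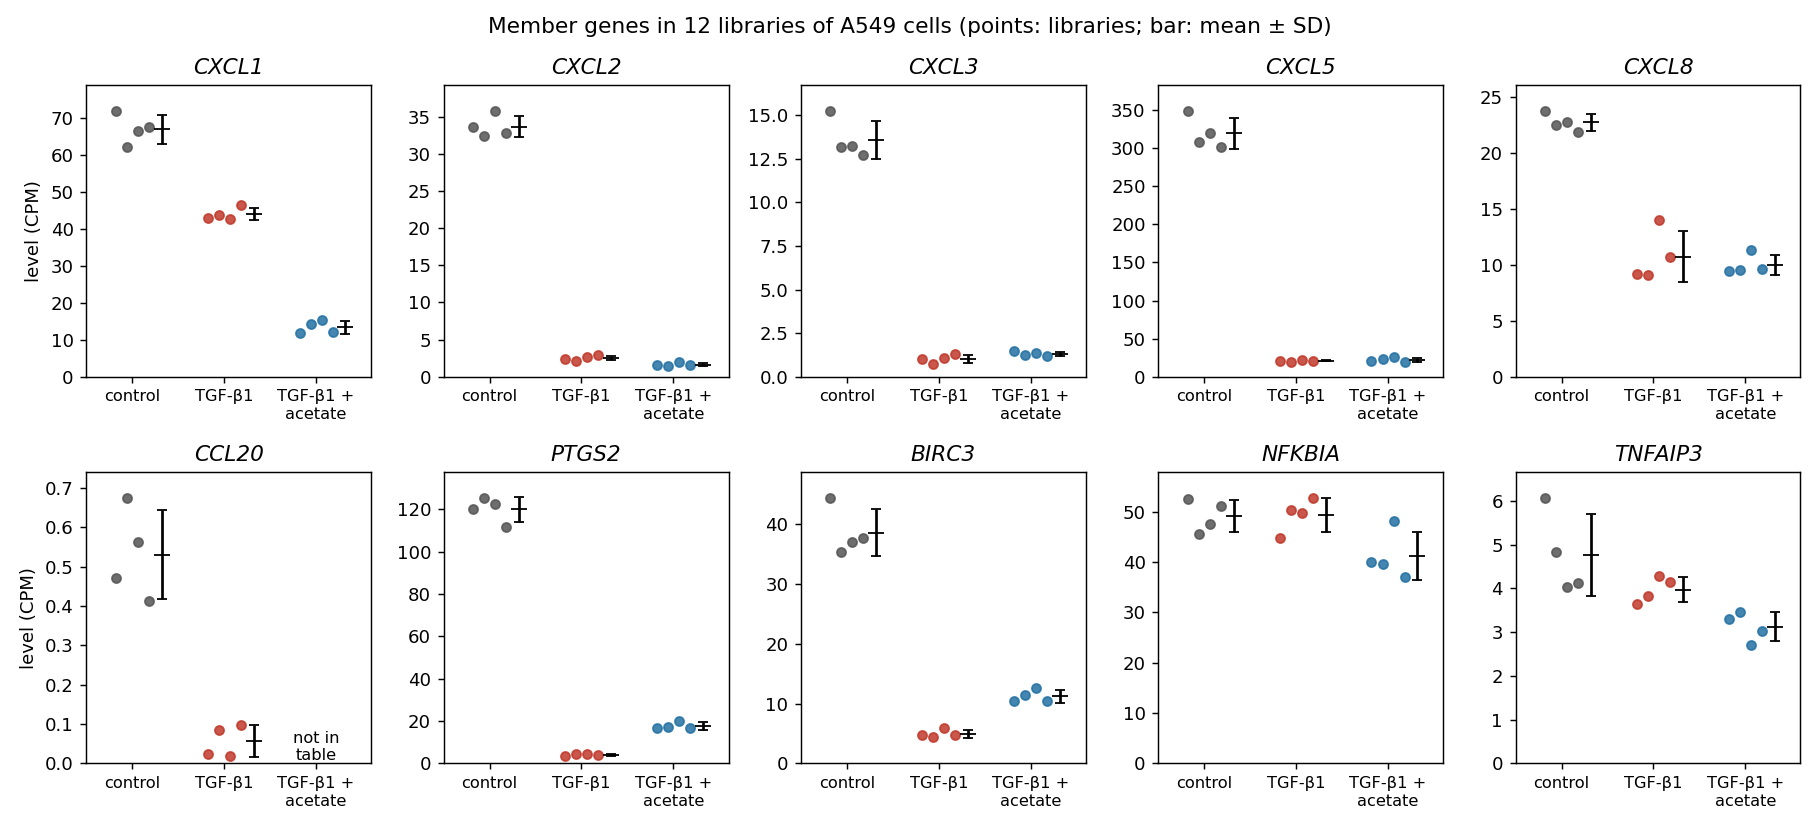
Level of each of the 10 genes in every library (CPM scaled by TMM factors, each panel's vertical axis starting at 0), by group, with points for libraries and bars for the mean ± SD. CXCL2, CXCL3, CXCL5, PTGS2 and BIRC3 stood high in control libraries only, CXCL1 stepped down through the groups, and the NFKBIA libraries overlapped between groups.

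CXCL1, CXCL2, CXCL3, CXCL5 and CXCL8 are small secreted proteins that share the Glu-Leu-Arg motif ahead of their first cysteines and bind the receptor CXCR2, CXCL8 also binding CXCR1. Their genes lie within 358.8 kb of chromosome 4 on hg38, a stretch with 9 protein-coding genes in the GENCODE 29 annotation: CXCL8 at chr4:73740506-73743716 and CXCL1 at chr4:73869393-73871242 on the plus strand, then CXCL5 at chr4:73995642-73998779, CXCL3 at chr4:74036589-74038807 and CXCL2 at chr4:74097035-74099293 on the minus strand. CXCL6, PF4V1 and PPBP lie among them and were in neither table. PF4 also lies among them and is described with the neighbours below. The receptor genes CXCR1 and CXCR2 were also in neither table.

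The promoters of the 5 genes are shown because each carries the same κB sequence ahead of its start. Sequences are those of RefSeq on GRCh38.p14, read 5′ to 3′ on the gene's own strand, and capitals mark GGAATTTCC. For CXCL1 the 250 bases before the start are given (chr4:73869143-73869392, plus strand). For CXCL2 (chr4:74099254-74099282, minus strand), CXCL3 (chr4:74038749-74038777, minus strand), CXCL5 (chr4:73998749-73998777, minus strand) and CXCL8 (chr4:73740468-73740496, plus strand) the site is given with 10 bases on either side.
CXCL1: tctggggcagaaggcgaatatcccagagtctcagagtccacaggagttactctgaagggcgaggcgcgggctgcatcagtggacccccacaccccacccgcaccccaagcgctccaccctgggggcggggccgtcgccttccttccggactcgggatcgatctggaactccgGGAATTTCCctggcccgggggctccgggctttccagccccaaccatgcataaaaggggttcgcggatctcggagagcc
CXCL2: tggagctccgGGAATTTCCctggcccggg
CXCL3: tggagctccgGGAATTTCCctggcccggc
CXCL5: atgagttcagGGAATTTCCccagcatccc
CXCL8: tgcaaatcgtGGAATTTCCtctgacataa
In CXCL2, CXCL3, CXCL5 and CXCL8 the gene models in the count tables begin 98, 118, 102 and 63 bases further upstream than RefSeq's start, so distances from the start depend on which model is used.

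The site began 78 bases before the RefSeq start in CXCL1, 77 in CXCL2, 78 in CXCL3, 90 in CXCL5 and 91 in CXCL8. Searched on both strands in the 250 bases before the start, GGAATTTCC (GGAAATTCC on the other strand) was present in 6 of the 10 genes, the 5 CXCL genes and NFKBIA, and in 0.413% of 35116 RefSeq promoters. The looser pattern GGGNNNNNCC, whose matches overlap that site in CXCL1, CXCL2, CXCL3, CXCL5 and NFKBIA, was present in all 10 and in 54.4% of promoters. The AP-1 motif TGACTCA was found in CXCL8 alone of the 10, 137 bases before its start, and in 4.20% of promoters. Over the 250 bases, CXCL1 and CXCL3 were identical at 84.0% of positions, CXCL1 and CXCL2 at 78.8%, and CXCL2 and CXCL3 at 78.4%, whereas pairs with CXCL5 or CXCL8 reached at most 63.2%. These are matches of letters, not measurements of binding.

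**Figure D2:**
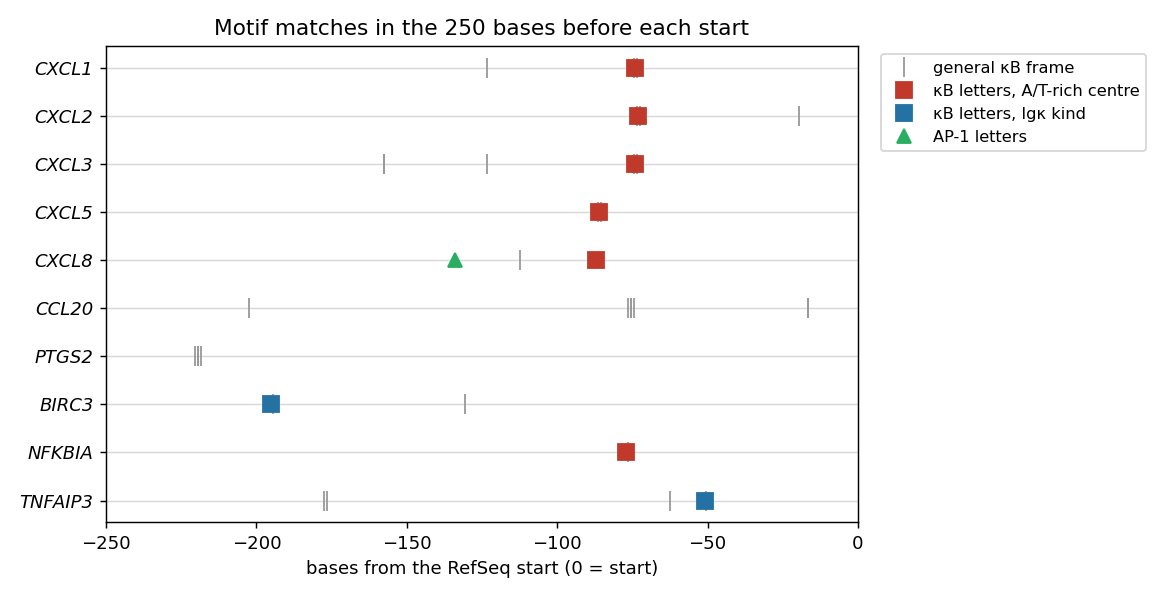
Positions of motif matches in the 250 bases before the RefSeq start of each gene (horizontal axis in bases before the start). The 5 CXCL genes carry GGAATTTCC between 91 and 69 bases before the start, NFKBIA between 81 and 73 on the opposite strand.

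CXCL5 was the most abundant of the 10 in control cells, also per length of its exons. Its levels were 348, 308, 319.8 and 302 CPM in control libraries S1 to S4, 21.2, 19.9, 21.5 and 21.2 CPM in TGF-β1 libraries S15 to S18, and 21.2, 22.7, 25.6 and 19.6 CPM in acetate libraries S22 to S25. Every control library stood above every treated library, and the TGF-β1 and acetate libraries overlapped. The fall after TGF-β1 was -3.92 on the log2 scale (SE 0.05, edgeR adjusted p = 9.1e-19), a 15.2-fold lower level. With acetate the log2 change from TGF-β1 alone was 0.10 (95% interval -0.05 to 0.25, edgeR adjusted p = 0.232), and it passed when scaled to library totals, at 0.23 (adjusted p = 0.00741), or without library S25, at 0.16 (adjusted p = 0.0492).

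CXCL2 and CXCL3, close copies of CXCL1, fell almost as far. CXCL2 stood at 33.6, 32.5, 35.7 and 32.9 CPM in control, 2.43, 2.14, 2.66 and 2.87 CPM in TGF-β1, and 1.61, 1.40, 1.94 and 1.51 CPM in acetate libraries. The 3 groups did not overlap, and the log2 change was -3.72 after TGF-β1 (SE 0.07, edgeR adjusted p = 9.4e-17) and a further -0.64 with acetate (SE 0.14, adjusted p = 0.00105).

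CXCL3 stood at 15.2, 13.2, 13.2 and 12.7 CPM in control, 1.005, 0.713, 1.09 and 1.29 CPM in TGF-β1, and 1.47, 1.22, 1.35 and 1.21 CPM in acetate libraries. Control libraries were apart from the others, while acetate and TGF-β1 libraries overlapped. Its log2 change was -3.70 after TGF-β1 (SE 0.12, edgeR adjusted p = 4.7e-14). The change from TGF-β1 to acetate was 0.35 (95% interval -0.04 to 0.75, adjusted p = 0.106), which passed only when scaled to library totals (0.49, adjusted p = 0.0299). The authors deposited 0.36, with a p-value of 0.0702 and a q-value of 0.0260. Their q-value lies below their p-value and cannot be read against the adjusted p given here.

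CXCL1 kept more of its transcript after TGF-β1 than these 3 genes and lost more when acetate was added. It stood at 71.7, 62.2, 66.6 and 67.4 CPM in control, 43.0, 43.8, 42.6 and 46.3 CPM in TGF-β1, and 11.8, 14.3, 15.3 and 12.04 CPM in acetate libraries. The 3 groups formed 3 separate steps. The log2 change was -0.60 after TGF-β1 (SE 0.04, edgeR adjusted p = 3.9e-09), 1.52-fold lower, and -1.70 with acetate (SE 0.07, adjusted p = 1.4e-11), 3.26-fold lower. Among all genes tested, 2.07% were at least 2-fold lower with acetate, and CXCL1 was the 1 gene of the 9 past that size.

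CXCL8 (interleukin 8) was lower after TGF-β1 and showed no call with acetate. It stood at 23.8, 22.6, 22.8 and 21.9 CPM in control, 9.17, 9.10, 14.01 and 10.7 CPM in TGF-β1, and 9.50, 9.52, 11.4 and 9.62 CPM in acetate libraries. Library S17 was the highest of the TGF-β1 libraries and S24 the highest of the acetate libraries, and these 2 groups overlapped while control stood above both. The log2 change was -1.06 after TGF-β1 (SE 0.10, edgeR adjusted p = 7.5e-08) and -0.10 with acetate (95% interval -0.36 to 0.15, adjusted p = 0.461). The latter was 0.03 both without S17 and when scaled to library totals.

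The ratio of CXCL1 counts to those of its neighbours shows the unequal change within each library, free of library scaling. CXCL1 was 1.86 to 2.13 times CXCL2 in control, 15.99 to 20.5 times in TGF-β1 and 7.34 to 10.2 times in acetate libraries. Against CXCL3 the ratio was 4.71 to 5.30, 35.9 to 61.4 and 8.04 to 11.7, and against CXCL5 it was 0.202 to 0.223, 1.98 to 2.20 and 0.558 to 0.630. Against CXCL8 it was 2.76 to 3.08 in control, 3.04 to 4.81 in TGF-β1 and 1.25 to 1.51 in acetate libraries. Of 8 two-sided exact permutation tests (4 against 4 libraries, chosen after the values were seen), 7 gave the smallest p that the design allows, 0.0286 (Benjamini-Hochberg 0.0327). The exception was CXCL1 to CXCL8 between control and TGF-β1, with an exact permutation p of 0.0571 and overlapping libraries. Because the ratios were chosen on these values and all share CXCL1, these p-values describe how the libraries separate and are not independent tests.

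The make-up of the CXCL transcripts differed between the groups. The 5 genes summed to 456.6 ± 26.0 CPM in control (SD, n = 4), 79.2 ± 3.46 CPM in TGF-β1 and 48.6 ± 5.13 CPM in acetate libraries. CXCL5 made up 70.0% ± 0.685 of their counts in control, 26.5% ± 0.783 in TGF-β1 and 45.8% ± 0.852 in acetate libraries (SD, n = 4 each). CXCL1 made up 14.7% ± 0.540, 55.5% ± 2.48 and 27.5% ± 1.29 in the same order. CXCL8 made up 4.99% ± 0.133, 13.5% ± 2.44 and 20.6% ± 1.04, while its level in CPM was lower in both treated groups. These are shares of counts, not corrected for transcript length.

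**Figure D3:**
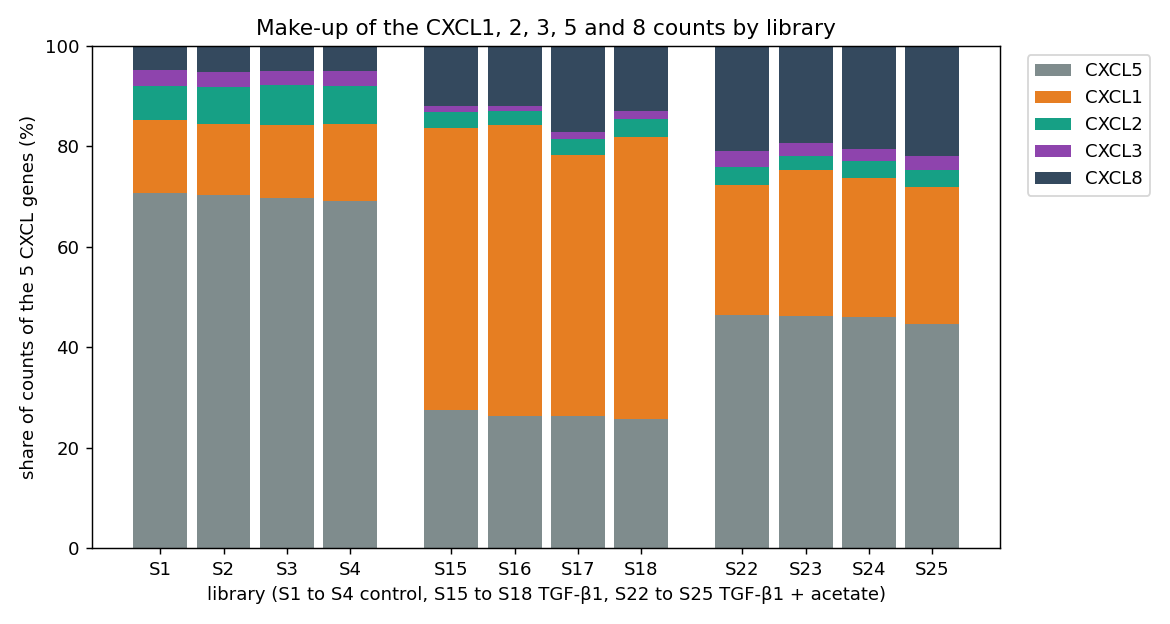
Share of each CXCL gene in the summed counts of the 5 genes (vertical axis, percent), 1 bar per library, grouped by treatment. CXCL5 holds 69.1% to 70.7% of counts in control libraries and CXCL1 holds 52.0% to 57.9% in TGF-β1 libraries.

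Reads from CXCL2 and CXCL3 can be hard to tell apart. In the GENCODE 29 transcripts, 108 stretches of 75 bases were identical between them, which is 6.87% of those in CXCL2 and 4.57% of those in CXCL3. CXCL1 shared 3 such stretches with CXCL2 (0.246% of its own) and CXCL5 shared 3 with GLYR1, and the remaining genes shared none with any other gene. How the authors counted reads that fit several genes is not given in the sources used here, so the CXCL2 and CXCL3 values carry that uncertainty.

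CCL20, the ligand of CCR6 that attracts dendritic cells and some T cells, was near the limit of detection. It lies at chr2:227813842-227817564 on hg38, plus strand. Control libraries held 23, 33, 22 and 22 counts and TGF-β1 libraries 1, 3, 1 and 4 counts, with no overlap. Summed, these were 100 and 9 counts, a ratio of 9.79 after scaling (95% interval 4.96 to 22.04, counting error only), and edgeR gave a log2 change of -3.22 (SE 0.42, adjusted p = 3.9e-06). Because CCL20 stands in this comparison only through its control libraries, its direction was set by the filter. Its receptor CCR6 was in neither table. The 81 bases before the RefSeq start (chr2:227813761-227813841, GRCh38.p14, plus strand) hold no GGAATTTCC, and capitals mark matches to GGGNNNNNCC on either strand.
CCL20: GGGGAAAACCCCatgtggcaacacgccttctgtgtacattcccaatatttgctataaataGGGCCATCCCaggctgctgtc

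PTGS2 encodes cyclooxygenase 2, the inducible enzyme that turns arachidonic acid into the precursor of prostaglandins. The gene lies at chr1:186671791-186680427 on hg38, minus strand. It showed the largest fall of the 10 after TGF-β1 and the largest rise with acetate. The levels were 120.2, 125, 123 and 112 CPM in control, 3.68, 4.68, 4.54 and 3.95 CPM in TGF-β1, and 16.5, 17.2, 20.2 and 16.9 CPM in acetate libraries. The groups did not overlap, and acetate libraries stood between the other two. The log2 change was -4.83 after TGF-β1 (SE 0.06, edgeR adjusted p = 1.0e-18), 28.4-fold lower, and 2.08 from TGF-β1 to acetate (SE 0.09, adjusted p = 2.0e-11), 4.24-fold higher. Against control, acetate libraries remained 6.76-fold lower (log2 change -2.76, adjusted p = 5.9e-18). Its promoter matched only the loose κB pattern in the 250 bases searched, here in capitals, 225 to 214 bases before the RefSeq start (chr1:186680593-186680673, GRCh38.p14, minus strand, 81 bases shown).
PTGS2: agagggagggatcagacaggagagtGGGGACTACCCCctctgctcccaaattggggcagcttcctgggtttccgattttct

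BIRC3 followed the same order of groups as PTGS2 with smaller steps. The gene lies at chr11:102317450-102339403 on hg38, plus strand. It stood at 44.2, 35.2, 36.9 and 37.6 CPM in control, 4.76, 4.39, 5.96 and 4.75 CPM in TGF-β1, and 10.4, 11.4, 12.6 and 10.4 CPM in acetate libraries. The 3 groups did not overlap. The log2 change was -2.94 after TGF-β1 (SE 0.09, edgeR adjusted p = 2.7e-14), 7.65-fold lower, and 1.17 with acetate (SE 0.10, adjusted p = 4.3e-08), 2.25-fold higher.

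NFKBIA showed the smallest change of the 10 after TGF-β1. It lies at chr14:35401511-35404749 on hg38, minus strand. Its levels were 52.5, 45.6, 47.6 and 51.2 CPM in control, 44.8, 50.3, 49.7 and 52.7 CPM in TGF-β1, and 40.1, 39.6, 48.2 and 37.0 CPM in acetate libraries. All 3 groups overlapped, the overlap with acetate resting on library S24. The log2 change after TGF-β1 was 0.01 (95% interval -0.10 to 0.12, edgeR adjusted p = 0.887), with a sign that turned with the scaling (-0.09 by library totals). From TGF-β1 to acetate it was -0.25 (SE 0.07, adjusted p = 0.00495), which did not pass when scaled to library totals (-0.12, adjusted p = 0.107).

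TNFAIP3 was low in all groups and lowest with acetate. It lies at chr6:137867188-137883312 on hg38, plus strand. Its levels were 6.06, 4.84, 4.04 and 4.12 CPM in control, 3.65, 3.82, 4.28 and 4.14 CPM in TGF-β1, and 3.31, 3.46, 2.72 and 3.02 CPM in acetate libraries. Control and TGF-β1 libraries overlapped, S1 being the highest of all, and every acetate library was below every other library. The log2 change after TGF-β1 was -0.26 (95% interval -0.51 to 0.00299, edgeR adjusted p = 0.0754), which passed by library totals (-0.36, adjusted p = 0.0159), without S3 (adjusted p = 0.0208) and without S4 (adjusted p = 0.0235). For this log2 change the authors deposited -0.234, with a p-value of 0.0764 and a q-value of 0.0262. From TGF-β1 to acetate it was -0.34 (SE 0.11, adjusted p = 0.0103), which did not pass by library totals (-0.21, adjusted p = 0.0973). The antisense gene AL357060.1 overlaps 510 bases of TNFAIP3 exons and was at 0.0815 CPM in TGF-β1 and 0.185 CPM in acetate libraries, and whether the counting used strand is not given in the sources used here.

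The promoters of these 3 genes are shown for their κB letters, which lie on the opposite strand in each. Capitals mark GGAAATCCC, the reverse complement of GGGATTTCC, in BIRC3 (chr11:102317249-102317329, plus strand) and TNFAIP3 (chr6:137867194-137867222, plus strand), and GGAAATTCC in NFKBIA (chr14:35404786-35404866, minus strand), from RefSeq on GRCh38.p14. The TNFAIP3 site is given with 10 bases on either side, since the gene model in the tables starts 71 bases upstream of RefSeq's start.
BIRC3: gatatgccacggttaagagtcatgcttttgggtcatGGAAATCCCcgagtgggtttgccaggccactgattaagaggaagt
NFKBIA: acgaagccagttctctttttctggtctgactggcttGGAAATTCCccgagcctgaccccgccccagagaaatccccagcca
TNFAIP3: aaagtcccgtGGAAATCCCcgggcctaca
The sites began 199 bases before the RefSeq start in BIRC3, 81 in NFKBIA and 55 in TNFAIP3. GGGATTTCC was found in 2 of the 10 genes and in 0.328% of 35116 promoters. Of the 6 genes with GGAATTTCC or its complement, CXCL1, CXCL2, CXCL3, CXCL5 and CXCL8 were lower after TGF-β1. Their log2 changes ran from -0.60 (CXCL1) to -3.92 (CXCL5), while NFKBIA did not pass (0.01). BIRC3 and TNFAIP3 both hold GGGATTTCC in complement and changed by -2.94 and -0.26, the latter not passing. Whether these sites have a part in the changes was not tested.

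**Figure D4:**
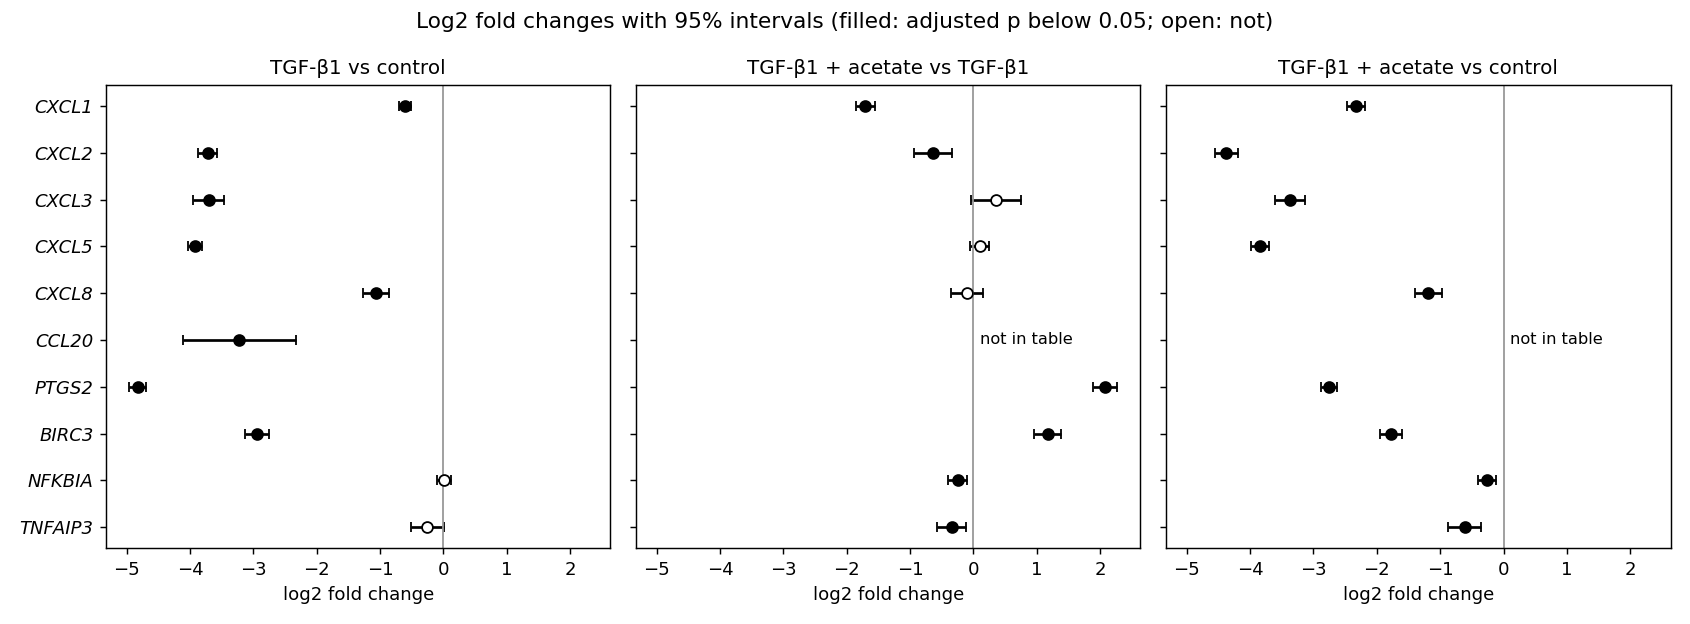
Log2 fold change of each gene (points, with 95% intervals) for TGF-β1 against control, acetate with TGF-β1 against TGF-β1, and acetate with TGF-β1 against control; filled points have an edgeR adjusted p below 0.05. The values run from -4.83 (PTGS2) to 0.01 (NFKBIA), from -1.70 (CXCL1) to 2.08 (PTGS2), and from -4.37 (CXCL2) to -0.26 (NFKBIA).

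Set against control cells in a fit of all 12 libraries, all 9 genes measured were lower in cells given TGF-β1 with acetate, where 70.6% of 22742 genes passed in either direction and 34.4% were lower. The log2 changes were -4.37 for CXCL2, -3.84 for CXCL5, -3.37 for CXCL3, -2.76 for PTGS2, -2.32 for CXCL1, -1.78 for BIRC3, -1.18 for CXCL8, -0.61 for TNFAIP3 and -0.26 for NFKBIA, with edgeR adjusted p from 1.7e-19 (CXCL5) to 0.0026 (NFKBIA). The libraries did not overlap for 8 of the 9, NFKBIA being the exception, beside 64% of all genes. Any 2 of the 3 comparisons share a group of libraries, so their sizes are given side by side and not tested against each other. The median of the 9 was -2.32, beside 0.02 over all genes.

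The order of the genes by level per kb of exon changed with treatment. Control cells held CXCL5 at 125.9 ± 8.11 CPM per kb (SD, n = 4) and CXCL1 at 51.7 ± 3.03, followed by PTGS2 at 22.8 ± 1.11, CXCL2 at 22.5 ± 0.968 and NFKBIA at 20.7 ± 1.34, neighbours whose ranges of mean ± SD overlap. TGF-β1 cells held CXCL1 at 33.9 ± 1.28 CPM per kb, NFKBIA at 20.8 ± 1.39 and CXCL5 at 8.26 ± 0.280, with CXCL8 at 4.73 ± 1.010 and CXCL2 at 1.68 ± 0.210. PTGS2 at 0.799 ± 0.0905, TNFAIP3 at 0.787 ± 0.0570 and BIRC3 at 0.660 ± 0.0910 CPM per kb followed in those cells, and BIRC3 overlapped with both of the other genes in mean ± SD, as these did with each other. Acetate cells held NFKBIA at 17.4 ± 2.04 CPM per kb, then CXCL1 at 10.3 ± 1.32 and CXCL5 at 8.79 ± 1.008, which overlap in mean ± SD, then CXCL8 at 4.40 ± 0.402, PTGS2 at 3.36 ± 0.323 and BIRC3 at 1.49 ± 0.141. CCL20 was the lowest in control, at 0.333 ± 0.0712, and in TGF-β1 cells, at 0.0356 ± 0.0253 CPM per kb.

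The lists that follow are described by how many of their genes passed, which can be read against all genes tested: 34.1% were higher and 32.8% lower after TGF-β1, and 33.3% higher and 30.4% lower with acetate; no list was tested against other genes. Upstream of these genes, the NF-κB subunits changed by at most 0.46 on the log2 scale in either direction after TGF-β1. After TGF-β1, 1 of 5 subunit genes was higher and 3 were lower: NFKB1, which encodes p105 and p50, changed by -0.36 and NFKB2 by -0.46 on the log2 scale, RELB by 0.32, while RELA, the main activating subunit, was at 56.8 and 57.7 CPM and did not pass (0.02). With acetate 1 of 5 was higher and 4 were lower (2 lower by library totals), with RELB at -1.02 and NFKB1 at -0.56. RELA changed by -0.15 with acetate and did not pass by library totals (-0.02).

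Of the 18 genes of the IKK complex and its adaptors, 6 were higher and 6 lower after TGF-β1 (4 and 10 by library totals), 12 of 18 beside 66.9% of all genes. IKBKG, the regulatory subunit NEMO, changed by -1.45, MAP3K14, the kinase of the noncanonical pathway, by -0.53, and IKBKB, the kinase that acts on IκBα, by -0.40. With acetate 6 were higher and 5 lower (12 and 3 by library totals), with MAP3K14 at 0.42 and the adaptor kinase IRAK2 at 0.59, while IKBKB did not pass (0.08) except by library totals (0.21, edgeR adjusted p = 2.97e-04). Among 13 tested IκB proteins and A20 partners, 4 were higher and 6 lower after TGF-β1 (3 and 7 by library totals), and 1 was higher and 6 lower with acetate (5 and 4 by library totals). NFKBIZ, a nuclear IκB, moved most, from 15.4 ± 1.15 CPM in control to 122.6 ± 5.16 CPM in TGF-β1 (log2 change 3.00) and 56.3 ± 1.51 CPM in acetate libraries (-1.11, SD, n = 4 each).

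Of the ligands that start the pathway, IL18 was the most abundant, at 43.0 ± 2.18 CPM in control, 15.2 ± 0.814 CPM in TGF-β1 and 37.3 ± 2.00 CPM in acetate libraries (SD, n = 4 each). TNF was in neither table, and IL1B was at 0.289 ± 0.0697 CPM in control and 0.103 ± 0.0386 CPM in TGF-β1 libraries (log2 change -1.48) and absent from the acetate table. IL1B stands in the comparison with control only through its control libraries (TGF-β1 libraries 0.0592 to 0.146 CPM), so it could only be lower. Of 6 ligands tested after TGF-β1, 4 (IL1B among them) were lower and 0 higher (32.8% and 34.1% of all genes), with IL18 at -1.50 and TNFSF14 at -2.25. TNFSF10 and TNFSF14, also among the 4, passed the test's filter only through their control libraries. Their TGF-β1 libraries held 0.172 to 0.342 and 0.172 to 0.292 CPM, so they too could only be lower. With acetate 3 of 5 were higher and 0 lower (33.3% and 30.4% of all genes), with TNFSF10, the death ligand TRAIL, at 3.13 and IL18 at 1.31. Among the 3, TNFSF10 and IL1A (TGF-β1 libraries 0.171 to 0.270 CPM) passed the filter only through their acetate libraries, so these genes could only be higher. Receptors were lower for 9 of 14 and higher for 3 after TGF-β1 (10 and 2 by library totals), with LTBR, the lymphotoxin beta receptor, at -1.18 and the intracellular sensor NOD1 at 1.08. With acetate 9 of 14 were higher and 3 lower (9 and 2 by library totals), with the endotoxin receptor TLR4 at 2.10 and TNFRSF11A, the receptor RANK, at 1.38. The receptor gene IL1R2 (TGF-β1 libraries 0.197 to 0.390 CPM) passed the filter in each comparison only through the other group. It could therefore only be lower after TGF-β1 and higher with acetate.

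Other known targets of NF-κB split in both directions, 11 of 23 higher and 11 lower after TGF-β1. Among the 11 lower, LCN2 stands there only through its control libraries (TGF-β1 libraries 0 to 0.147 CPM), so it could only be lower. IL6, a cytokine that many cells make under NF-κB, rose from 1.58 ± 0.208 CPM in control to 4.95 ± 0.0721 CPM in TGF-β1 libraries (log2 change 1.65) and fell to 1.27 ± 0.133 CPM with acetate (-1.95), SD, n = 4 each. The complement gene C3 changed by -2.55 after TGF-β1 and 0.96 with acetate, the urokinase gene PLAU by 2.04 after TGF-β1, and TNFAIP2 by 1.24 with acetate. With acetate 9 of 22 targets were higher and 10 lower (12 and 7 by library totals). Of the chemokine receptors, ACKR3, a scavenging receptor, was tested in both comparisons and changed by 2.64 and then -1.51.

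**Figure D5:**
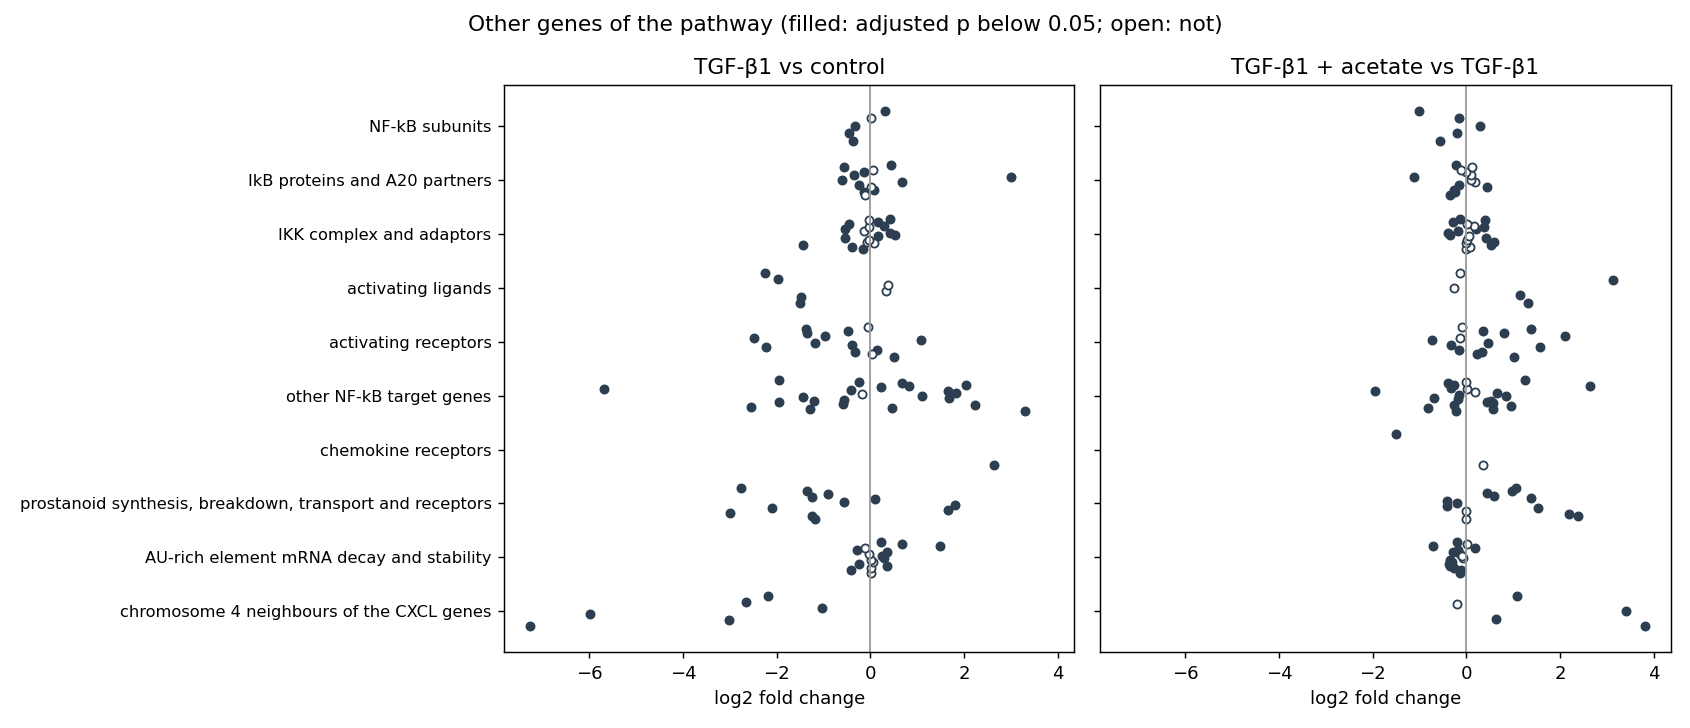
Log2 fold change (horizontal axis) of every tested gene of the 10 pathway lists, for TGF-β1 against control and for acetate with TGF-β1 against TGF-β1; filled points have an edgeR adjusted p below 0.05 and open points do not. NFKBIZ and IL6 rose after TGF-β1 (3.00 and 1.65) and fell with acetate (-1.11 and -1.95), while PLA2G4A fell and rose (-2.99 and 2.20).

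Of 12 genes of prostanoid metabolism tested after TGF-β1, 9 were lower and 3 higher (9 and 2 by library totals), beside 32.8% of all genes lower. Of 13 tested with acetate, 8 were higher and 3 lower (9 and 2 by library totals), beside 33.3% of all genes higher. Among the 8 higher, PTGFR stands there only through its acetate libraries (TGF-β1 libraries 0.138 to 0.245 CPM), so it could only be higher. PLA2G4A, the phospholipase that frees arachidonic acid, went from 94.5 ± 2.33 CPM in control to 11.8 ± 0.844 CPM in TGF-β1 (log2 change -2.99) and 54.1 ± 4.55 CPM in acetate libraries (2.20). HPGD, the enzyme that inactivates prostaglandin E2, changed by -1.24 and then 2.38, and PTGR1, a reductase that acts after it, by -1.25 after TGF-β1. PTGES, the inducible prostaglandin E synthase, went the other way, at 1.80 after TGF-β1 and -0.42 with acetate.

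Several of the 10 transcripts are known to carry AU-rich elements that shorten their lives. Of 16 genes for proteins that bind or degrade such RNAs, 7 were higher and 3 lower after TGF-β1 (6 and 7 by library totals), 10 of 16 beside 66.9% of all genes. ZFP36, the decay factor tristetraprolin, went from 15.8 ± 0.645 CPM in control to 44.3 ± 4.44 CPM in TGF-β1 (log2 change 1.49) and 26.9 ± 0.735 CPM in acetate libraries (-0.71). ZFP36L1 changed by 0.67 after TGF-β1. With acetate 1 of 16 was higher and 12 were lower (2 and 7 by library totals), with a median log2 change of -0.19 and the deadenylase PARN at -0.35.

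Of the neighbours of the CXCL genes on chromosome 4, all 6 tested were lower after TGF-β1 (32.8% of all genes). With acetate 4 of 5 were higher and 0 lower (33.3% of all genes higher). By DESeq2 size factors 1 was lower with acetate, MTHFD2L at -0.22. Among the 6 tested after TGF-β1, PF4 stands there only through its control libraries (TGF-β1 libraries 0.0487 to 0.200 CPM), so it could only be lower. EREG (epiregulin) went from 275 ± 6.43 CPM in control to 4.34 ± 0.298 CPM in TGF-β1 (log2 change -5.98) and 45.4 ± 2.87 CPM in acetate libraries (3.40). AREG (amphiregulin) went from 65.8 ± 4.47 to 0.425 ± 0.153 and 5.93 ± 0.493 CPM (log2 changes -7.26 and 3.81). Both encode ligands of the EGF receptor.

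By the root mean square difference of centred log2 levels over the 12 libraries, the 3 protein-coding genes most like the median CXCL profile, out of 13348 compared, were DIO2 (0.210), PER2 (0.213) and FGB (0.235), beside a median of 1.63. Those most like PTGS2 were CEACAM6 (0.139), APOH (0.191) and ANXA13 (0.228), beside a median of 1.98; APOH, for example, stood at 17.7, 0.689 and 3.15 CPM in the 3 groups in order. Those most like the median of BIRC3, NFKBIA and TNFAIP3 were SLC25A32 (0.129), ZCCHC4 (0.132) and SRGAP2B (0.132), beside a median of 0.330, so that this profile was close to that of many genes. BIRC3 stood at means of 38.5, 4.96 and 11.2 CPM and NFKBIA at 49.2, 49.4 and 41.2 CPM in control, TGF-β1 and acetate libraries. Their median with TNFAIP3 therefore does not describe BIRC3. Likewise CXCL1 and CXCL8 fell less after TGF-β1 than CXCL2, CXCL3 and CXCL5, so the median CXCL profile is not that of every member. The measure of likeness describes these libraries only.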

How the data were processed

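Gene counts came from 12 libraries of A549 cells in 3 groups of 4. Per the labels' protocols, stranded libraries were made after ribosomal RNA removal and sequenced as 75 bp paired reads. The submitters' processing notes name bcl2fastq, HISAT2, limma and hg38; versions, the counting tool and its strand setting: not given in the sources used here. The authors deposited 2 tables of raw counts per gene, and beside them, per the file headers, a log2 fold change with a p-value and a q-value for each gene. The 32 other value columns were not used. On the values, every gene of either table exceeds 0.1 CPM in 4 or more libraries. The 4 TGF-β1 columns stand in both tables, which share 23771 genes. Columns were placed in groups as the table names give them. A chi-square per degree of freedom of 3.95 to 17.3 over 18 pairs of libraries within groups showed no duplicates.

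Counts were tested in R 4.3.3 with edgeR 4.0.16 (filterByExpr with minimum count 10 and total 15, TMM, quasi-likelihood F test, two-sided, Benjamini-Hochberg over all genes tested, threshold 0.05), each comparison within its table and acetate against control in a joint fit of the 12 libraries on shared genes. The script was tested on simulated data. Levels are CPM with the TMM factors of the joint fit, and CCL20 used the same library sizes. Lengths are merged exons of GENCODE 29, and likeness used log2(CPM + 0.1) for genes with a mean of at least 1 CPM. Alternatives were DESeq2 size factors, library totals, no filter, DESeq2 1.42.0, limma-voom (3.58.1), other sets of libraries, and leaving out each library. Named genes are the 10 members, a set chosen by name whatever its values (RELA, NFKB1, IKBKB, TNF, IL1B, IL6, CXCR1, CXCR2, CCR6, PTGES, HPGD, ZFP36, EREG, AREG), and the 2 with the smallest p per list and comparison, with fewer printed where a list gives more. The members and lists were chosen with earlier results of these data known. 1 of the leukocyte markers is not reported here. Depth sets the precision: intervals on counts cover counting error only.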

Additional observations from a re-analysis of the deposited data

Results flagged for a closer look

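CXCL8 in acetate library S24 stood at 11.4 CPM, apart from the other 3 acetate libraries at 9.50 to 9.62 CPM; its gap to the nearest was 0.938 of the group's range. This was the 1 such case among 29 gene and group combinations, of which chance gives about 5%. The same library was the highest of its group for 7 of the 9 genes. Without it the log2 change of CXCL8 from TGF-β1 to acetate was -0.18 and did not pass the test.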

How the results depend on the processing

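The number of genes that passed ranged from 7 to 9 for TGF-β1 against control (7 in the joint fit, which leaves out CCL20), from 6 to 7 for acetate against TGF-β1, and was 9 for acetate against control, under every alternative run. The sign of the NFKBIA change after TGF-β1 turned with DESeq2 size factors (-0.00357), library totals (-0.0945), DESeq2 (-0.00472), and without libraries S2, S3 or S18; without 1 library it ran from -0.0580 to 0.0551, with adjusted p from 0.113 to 0.962 over its alternatives. That of CXCL8 with acetate turned with library totals (0.0282) and without S17, and ran from -0.202 to 0.0330 without 1 library, with adjusted p from 0.137 to 0.842. The calls of TNFAIP3, CXCL3, CXCL5 and NFKBIA that change with scaling or 1 library are given beside their values; library totals shift all genes together, and the cause of the other changes was not tested. The log2 changes without 1 library ran from -3.63 to -2.89 for CCL20 and from -4.88 to -4.77 for PTGS2 after TGF-β1. No paired analysis was possible because the count columns carry no replicate numbers. Depth limits CCL20, whose TGF-β1 libraries held 1 to 4 counts.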
